A study of Mus musculus with 8 samples.

Results

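The genes described here are a module of 31 mouse genes of cholesterol synthesis and sterol regulation, chosen by name for what their proteins do. No measured value was a criterion, but earlier results of these data were known when they were chosen. All 31 were found among the 35976 genes of the deposited gene table. RNA was measured by sequencing in liver of mice on a high fat diet, in 5 libraries with the genotype label CTRL and 3 labelled OPA1_LKO, from livers in which Opa1 was knocked out in hepatocytes. Opa1 encodes the dynamin-like protein that fuses inner mitochondrial membranes. Both groups carried the same diet label and differed by genotype label only. The labels used here give no Cre driver, deleted exon, strain, sex or age, and do not say whether each library came from a separate animal, so p-values measure the spread between these libraries, which may be technical in part.

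Cholesterol is built from acetyl-CoA through mevalonate and squalene, and the liver is a main site of this route. Its enzymes are transcribed under SREBP2, a membrane-bound factor that SCAP carries to the Golgi apparatus for cleavage when endoplasmic reticulum sterol is low, while INSIG proteins hold it back when sterol is high. LXR receptors bind oxysterols and switch on the ABC transporters that move sterol out of the cell, surplus cholesterol is esterified for storage or secretion, and cholesterol taken up with lipoproteins leaves the lysosome through NPC1.

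Library totals ran from 16076404 to 20471271 expected counts. A level in CPM is a count divided by the scaled library total, used to compare 1 gene across libraries, and a level in TPM is corrected for length, used to compare genes. Fold changes are OPA1_LKO against CTRL. Opa1 itself was at 48.1 ± 6.90 CPM (SD, n = 5) in CTRL and 31.03 ± 5.53 CPM (SD, n = 3) in OPA1_LKO, and the difference of -0.63 ± 0.17 (SE) on the log2 scale had an adjusted p of 0.0539 (edgeR, Benjamini-Hochberg). Opa1 was thus not called at the threshold of 0.05 used below, though no OPA1_LKO library reached its level in the lowest CTRL library. The summed level of 8 hepatocyte markers was high in every library, at 56030 to 101700 CPM, and most of it was Alb (42680 to 77090 CPM). Of the 8, 1 was called higher, Tat (log2 fold change 1.61 ± 0.26, edgeR adjusted p = 0.0095), and 0 lower. Ass1 had all OPA1_LKO libraries above all CTRL libraries and Fgb all below, and neither was called. CTRL replicate 1 stood apart: its Apoe, which encodes a lipoprotein ligand for uptake into liver, was at 133.8 CPM, with 20760 to 33180 CPM in the other 7 libraries. In that library 13 macrophage and Kupffer cell markers summed to 1100 CPM, against 211 to 427.5 CPM in the other CTRL libraries and 218.8 to 362.5 CPM in OPA1_LKO. The sum of 8 bile duct markers was 17.8 to 72.9 CPM in CTRL and 142.5 to 206.5 CPM in OPA1_LKO, with 4 of the 8 called higher. Spp1 carried this gap, and without it the other 7 summed to 20.7 to 30.4 CPM in OPA1_LKO, to 3.77 to 4.70 CPM in 4 CTRL libraries and to 51.9 CPM in CTRL replicate 3. That library also exceeded every OPA1_LKO library for Krt19, Epcam, Cldn7 and Cftr. Krt7, Sox9 and Muc1 were the 3 markers called higher beside Spp1, with log2 fold changes of 2.04, 1.72 and 2.02. For each of them every OPA1_LKO library was above every CTRL library, a pattern found in 8% of all tested genes. Stellate cell markers summed to 185.7 to 264.5 CPM in CTRL and 267.8 to 604.7 CPM in OPA1_LKO, with 0 of 9 called. The part of these cell types in the results below was not tested. In whole liver, fewer cells of a type and less RNA per cell cannot be told apart.

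Of the 31 sterol genes, 2 changed with the genotype. Npc1, the lysosomal cholesterol exporter, was higher in OPA1_LKO, and Acat2, the cytosolic thiolase that makes acetoacetyl-CoA, was lower. All 31 passed the filter on low counts and were tested with edgeR's quasi-likelihood test, and a gene was called at a Benjamini-Hochberg adjusted p under 0.05 over the 14036 genes tested. The 1 member called higher is set beside 3.34% of all tested genes, and the 1 called lower beside 2.69%. At an unadjusted p under 0.05 there were 8 members, or 25.8%, against 23.8% of all tested genes. The median log2 fold change over the members was -0.01, against -0.03 over all tested genes, with 15 members above 0 and 16 below. Npc1 was the 1 member for which all OPA1_LKO libraries lay above all CTRL libraries, a pattern found in 8% of all tested genes. Acat2, Insig2 and Nr1h3 had all OPA1_LKO libraries below all CTRL libraries, as had 8.41% of all tested genes. The shares of the members are thus near those of all genes.

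**Figure D1:**
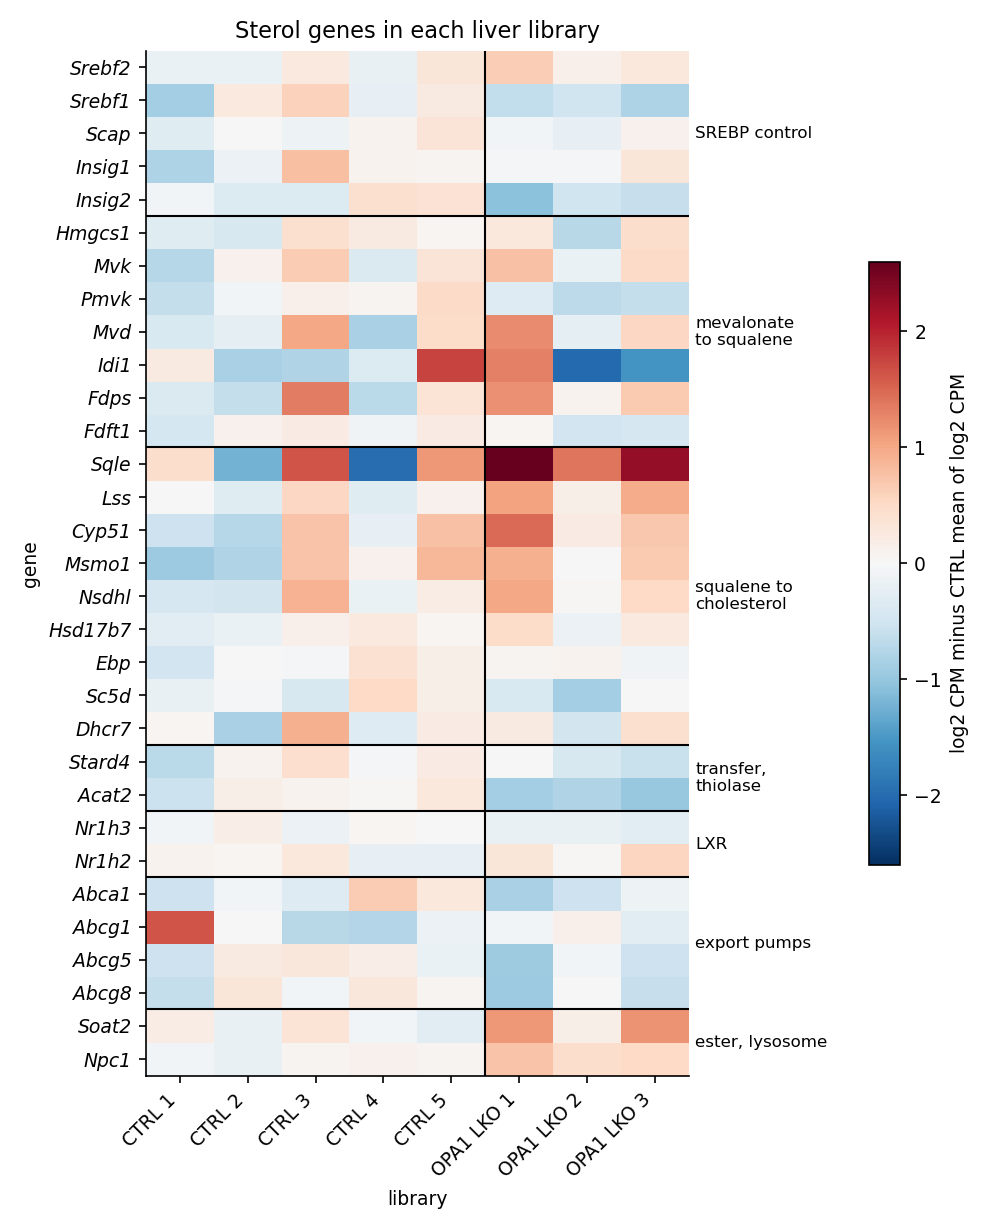
Level of each of the 31 genes in each library, as log2 CPM minus the gene's mean over the 5 CTRL libraries (colour), with the genes grouped by role and the genotypes parted by the vertical line. Sqle, Lss, Cyp51, Msmo1 and Nsdhl were above their CTRL mean in CTRL replicates 3 and 5 and OPA1 LKO replicates 1 and 3. In OPA1 LKO replicate 2 Sqle was at 1.38, Cyp51 at 0.207, Lss at 0.158, Nsdhl at 0.036 and Msmo1 at -0.004. Sqle was also above its mean in CTRL replicate 1 (0.448) and Msmo1 in CTRL replicate 4 (0.115). Sc5d was not above its CTRL mean in OPA1 LKO, Acat2 was low in all 3 OPA1 LKO libraries, and Npc1 was high in all 3.

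Because CTRL replicate 1 stood apart, the counts were also taken without it. Then 2 members were called higher, Npc1 and Soat2, against 6.65% of all tested genes. Lower calls were made for 3 members, Srebf1, Pmvk and Acat2, against 5.59% of all tested genes. When OPA1_LKO replicate 1 was left out instead, 0 members were called in either direction. Of all 14305 genes tested in that fit, 144 were called higher and 54 lower. Leaving out OPA1_LKO replicate 3 also gave 0 members, with 159 of 14469 tested genes higher and 72 lower. Calls were thus few over all genes in both fits. DESeq2 on all 8 libraries called Npc1 and Soat2 higher, where 5.21% of the genes it gave an adjusted p were called, and Acat2 and Insig2 lower, where 5.42% were. TPM values are corrected for length but do not carry the scaling of library totals used for CPM. On them, limma on log2(TPM + 1) moved the median of all genes up by 0.125. The share of higher calls among changed genes went from 55.4% to 82.5%. The parts of length and of scaling in these shifts were not tested. This limma fit called Npc1 higher and 0 members lower.

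**Figure D2:**
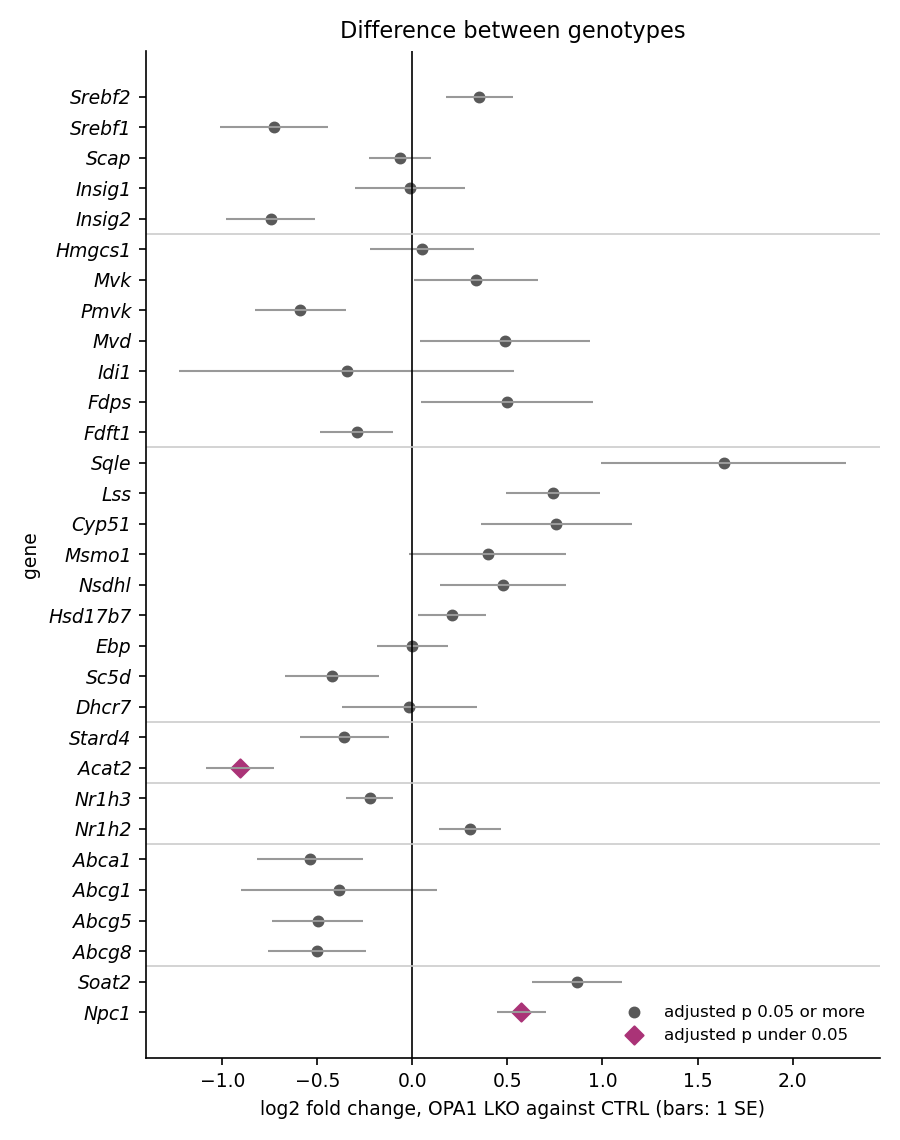
Log2 fold change of each gene in OPA1 LKO against CTRL from edgeR (points), with bars of 1 SE and diamonds for an adjusted p under 0.05. The diamonds are Acat2 at -0.91 and Npc1 at 0.57, and Sqle has the highest estimate, at 1.64, with an SE of 0.65.

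The 5 genes that control SREBP activity gave 0 calls. Insig2, the endoplasmic reticulum anchor whose liver transcript is known to fall with insulin, was at 122.8, 101.5, 100.8, 173.8 and 168.1 CPM in CTRL replicates 1 to 5. In OPA1_LKO replicates 1 to 3 it was at 61.9, 90.9 and 85.9 CPM. The groups did not overlap, and Insig2 differed by -0.75 ± 0.23 (SE) on the log2 scale, with an edgeR adjusted p of 0.0904 (Benjamini-Hochberg). DESeq2 put the adjusted p of Insig2 at 0.0250. Per length, Insig2 was the most abundant of the 5, with 60.9 ± 15.6 TPM (SD, n = 5) for CTRL and 40.7 ± 7.88 TPM (SD, n = 3) for OPA1_LKO.

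Srebf1, which encodes the SREBP1 factors of fatty acid synthesis, stood at 43.4, 95.6, 121.9, 69.1 and 93.4 CPM in the CTRL libraries and 51.6, 56.0 and 45.8 CPM in the OPA1_LKO libraries. CTRL replicate 1, the library with little Apoe, held the lowest value of all 8, and the other 4 CTRL libraries were above every OPA1_LKO library. For Srebf1 the log2 fold change was -0.73 ± 0.28 with an adjusted p of 0.156, and without CTRL replicate 1 it was -0.89 with an adjusted p of 0.0188 (edgeR, Benjamini-Hochberg). Srebf2, the SREBP2 gene, was at 14.98, 15.1, 20.2, 14.8 and 21.1 CPM in the CTRL libraries and 26.6, 18.7 and 20.7 CPM in the OPA1_LKO libraries. The groups overlapped, at a log2 fold change of 0.35 ± 0.18 and an adjusted p of 0.258. Srebf1 and Srebf2 thus had estimates of opposite sign, of which neither passed the threshold with all libraries.

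Scap, the escort of SREBP, had a mean of 59.0 CPM in CTRL and 56.4 CPM in OPA1_LKO. Insig1, itself a known SREBP target, had 56.8 and 56.4 CPM, and its CTRL libraries spread from 30.8 to 92.5 CPM. Their log2 fold changes were -0.07 ± 0.16 and -0.01 ± 0.29.

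The mevalonate arm, from HMG-CoA synthase to squalene synthase, held 7 members and 0 calls, with a median log2 fold change of 0.05. Hmgcs1, which makes HMG-CoA in the cytosol, ran from 43.9 to 78.4 CPM in CTRL and from 35.3 to 80.1 CPM in OPA1_LKO. Its estimate was 0.05 ± 0.28 on the log2 scale. The 3 kinase and decarboxylase steps did not share a sign: Mvk, mevalonate kinase, was at 0.33 ± 0.33, Mvd, the decarboxylase, at 0.49 ± 0.45, and Pmvk, phosphomevalonate kinase, at -0.59 ± 0.24.

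Pmvk was at 5.15, 7.59, 8.78, 8.37 and 11.2 CPM in the CTRL libraries and 6.28, 4.95 and 5.15 CPM in the OPA1_LKO libraries. CTRL replicate 1 was again the lowest control and the only one inside the OPA1_LKO range. The adjusted p of Pmvk was 0.170, and without CTRL replicate 1 the log2 fold change was -0.72 with an adjusted p of 0.0399 (edgeR, Benjamini-Hochberg).

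Idi1, the isomerase of isopentenyl diphosphate, was the least abundant enzyme per length, at 0.81 ± 0.78 TPM (SD, n = 5) in CTRL. It was at 1.91, 0.84, 0.89, 1.24 and 5.67 CPM in the CTRL libraries and 4.16, 0.31 and 0.47 CPM in the OPA1_LKO libraries. A single library in each group was high, CTRL replicate 5 and OPA1_LKO replicate 1, and the log2 fold change of -0.35 ± 0.88 moved to -2.42 without OPA1_LKO replicate 1, to 0.44 without CTRL replicate 5, to 0.14 without OPA1_LKO replicate 2 and to 0.10 without OPA1_LKO replicate 3. Fdps, farnesyl diphosphate synthase, ranged from 14.1 to 57.4 CPM in CTRL and from 24.2 to 52.2 CPM in OPA1_LKO. Fdft1, which joins farnesyl units into squalene, ranged from 45.2 to 72.2 CPM and from 44.1 to 63.8 CPM. Both had overlapping groups, with log2 fold changes of 0.50 ± 0.45 for Fdps and -0.29 ± 0.19 for Fdft1.

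Between squalene and cholesterol there were 9 members, 7 with a positive estimate and 2 with a negative one, a median of 0.40 and 0 calls. Ebp, counted as positive at 0.00, and Dhcr7, negative at -0.02, each changed sign in some alternatives, Dhcr7 in 5 of 13. Sqle, the squalene monooxygenase and a rate-limiting step of the route, was at 3.45, 1.01, 8.05, 0.55 and 5.56 CPM in the CTRL libraries and 15.7, 6.70 and 12.7 CPM in the OPA1_LKO libraries. OPA1_LKO replicates 1 and 3 were above every control, and OPA1_LKO replicate 2 was below CTRL replicate 3. The log2 fold change of 1.64 ± 0.65 was the highest estimate of the module, with an adjusted p of 0.160 (edgeR, Benjamini-Hochberg). The gene lies at chr15:59315092-59331193 (GRCm38.p6).

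Lss, lanosterol synthase, was at 11.3, 9.10, 16.5, 9.19 and 12.4 CPM in the CTRL libraries and 23.7, 12.7 and 22.2 CPM in the OPA1_LKO libraries. As with Sqle, OPA1_LKO replicate 2 lay inside the control range and the other OPA1_LKO libraries above it. The log2 fold change was 0.74 ± 0.25 with an adjusted p of 0.105, which became 0.0467 without OPA1_LKO replicate 2 and 0.0480 without CTRL replicate 3 (edgeR, Benjamini-Hochberg). Cyp51, the lanosterol demethylase, was at 9.61, 8.37, 23.6, 12.1 and 24.1 CPM in the CTRL libraries and 39.5, 16.3 and 23.1 CPM in the OPA1_LKO libraries. Its groups overlapped, at 0.76 ± 0.40 on the log2 scale and an adjusted p of 0.277.

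The next enzymes remove the remaining methyl groups of the sterol ring. Msmo1, the methyl oxidase, had a log2 fold change of 0.40 ± 0.41, Nsdhl, the decarboxylating dehydrogenase, 0.48 ± 0.33, and Hsd17b7, the keto-reductase, 0.21 ± 0.18, with adjusted p-values of 0.417 to 0.597 (edgeR, Benjamini-Hochberg). Later steps showed no common sign. Sc5d, a sterol desaturase, was at 145.6 ± 37.96 CPM (SD, n = 5) in CTRL and 108.6 ± 32.2 CPM (SD, n = 3) in OPA1_LKO (log2 fold change -0.42 ± 0.25). Dhcr7, the reductase of the last step, had -0.02 ± 0.36. Ebp, the sterol isomerase, was the most abundant of the enzymes per length, with 101.4 ± 14.3 TPM (SD, n = 5) for CTRL and 115.9 ± 17.9 TPM (SD, n = 3) for OPA1_LKO, and its estimate from counts was 0.00 ± 0.19.

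Across the 16 synthesis enzymes from Hmgcs1 to Dhcr7, 11 estimates were positive and 5 negative, and 0 were called. The split is not fixed: Ebp (0.00) and Hmgcs1 (0.05), counted as positive, turned negative in some of the 13 alternatives, Hmgcs1 in 4. Dhcr7 and Idi1, counted as negative, turned positive in 5 and 3. Their median was 0.27 on the log2 scale. Their levels differed widely between libraries of the same genotype. OPA1_LKO replicate 1 had 14 of the 16 above the gene's median over all libraries, CTRL replicate 3 had 13, and CTRL replicate 5 and OPA1_LKO replicate 3 had 12 each. At the other end, CTRL replicate 1 had 1, CTRL replicate 2 and OPA1_LKO replicate 2 had 3 each, and CTRL replicate 4 had 6. Each genotype therefore held libraries with high and with low synthesis enzymes. OPA1_LKO replicate 1 was the highest of all 8 libraries for 8 of the 16 enzymes.

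The share of counts from the mitochondrial genome was 15.4%, 26.4%, 18.8% and 21.7% in the libraries with high enzymes, OPA1_LKO replicate 1, CTRL replicates 3 and 5 and OPA1_LKO replicate 3. It was 13.9%, 14.9%, 12.0% and 17.0% in those with low enzymes, CTRL replicates 1 and 2, OPA1_LKO replicate 2 and CTRL replicate 4. The part of this share in the pattern was not tested. The labels carry no time of day, feeding state or library batch that could be set beside it.

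**Figure D3:**
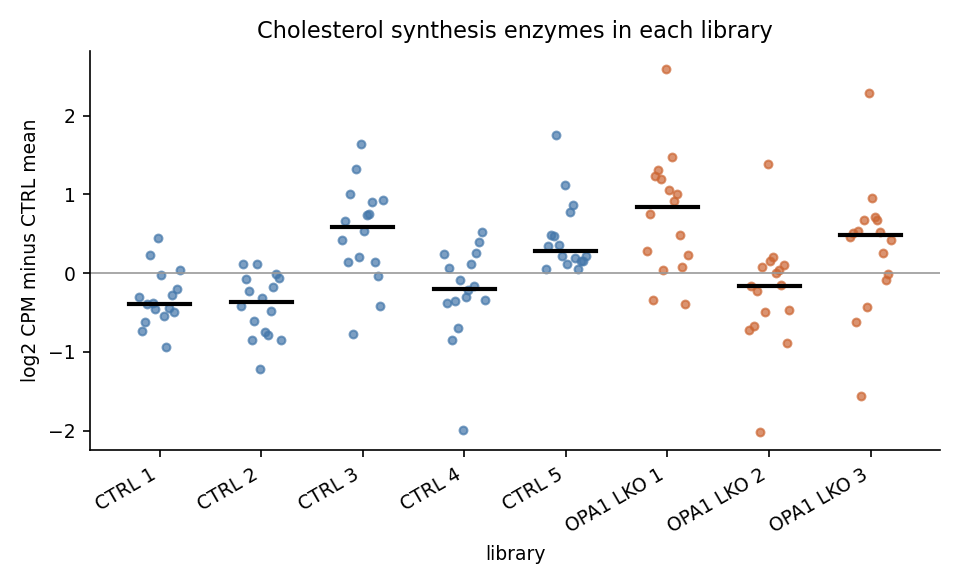
Log2 CPM of each of the 16 synthesis enzymes minus its mean over the CTRL libraries (1 point per enzyme), by library, with a bar at the median of the 16. The medians run from -0.39 in CTRL replicate 1 to 0.59 in CTRL replicate 3 and from -0.16 in OPA1 LKO replicate 2 to 0.84 in OPA1 LKO replicate 1, so both genotypes span high and low libraries.

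The enzymes also shared letters upstream of their genes. In RefSeq's promoter table for GRCm38.p6, read over the 250 bases before the start on both strands, 13 synthesis enzymes could be examined. A gene with several listed starts was counted if any of them had the match, and Dhcr7 and Pmvk also had starts without CCAAT. All 13 held CCAAT, the box bound by NF-Y, a known partner of SREBP2, against 40.2% of the 10562 genes tested here that have an entry. GGGCGG, the GC box of SP1, was in 12 of the 13, or 92.3%, against 60.5%. TCACNCCAC, a core of the sterol response element, was in 1, against 1.26%. The boxes were not particular to the enzymes: of the 5 SREBP control genes 4 held CCAAT and 5 held GGGCGG. Of the 5 LXR and transporter genes in the table, 1 held CCAAT and 1 held GGGCGG. These are letter matches, which say nothing of binding, and the motifs do not contain one another. Counted per promoter and not per gene, the shares over all 32851 promoters of the table were 33.8%, 32.7% and 1.05%.

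Upstream sequences of 4 members follow, 5′ to 3′ on the gene's strand, each ending at the base before the start. Hmgcs1 is shown as the 1 examined enzyme with the sterol response core. Cyp51 and Nsdhl are shown as enzymes of the later arm with CCAAT and GC boxes. Acat2 is shown as a called member, and its window held no CCAAT. The promoter of Npc1, the other called member, was not examined. Capitals mark the matches, with ATTGG and CCGCCC being CCAAT and GGGCGG on the other strand. The windows are chr13:119690101-119690350 on the plus strand for Hmgcs1, chr5:4104698-4104947 on the minus strand for Cyp51, chrX:72918271-72918520 on the plus strand for Nsdhl and chr17:12960726-12960975 on the minus strand for Acat2.
Hmgcs1: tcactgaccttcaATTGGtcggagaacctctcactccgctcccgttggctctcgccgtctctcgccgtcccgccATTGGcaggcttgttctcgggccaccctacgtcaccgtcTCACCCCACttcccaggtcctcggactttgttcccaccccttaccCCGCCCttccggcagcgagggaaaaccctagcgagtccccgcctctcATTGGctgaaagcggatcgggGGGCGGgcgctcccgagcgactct
Cyp51: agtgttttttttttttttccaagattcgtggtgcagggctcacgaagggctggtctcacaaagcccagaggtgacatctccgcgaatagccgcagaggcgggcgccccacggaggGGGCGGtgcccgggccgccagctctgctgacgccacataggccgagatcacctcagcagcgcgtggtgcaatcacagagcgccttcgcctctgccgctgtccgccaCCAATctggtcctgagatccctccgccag
Nsdhl: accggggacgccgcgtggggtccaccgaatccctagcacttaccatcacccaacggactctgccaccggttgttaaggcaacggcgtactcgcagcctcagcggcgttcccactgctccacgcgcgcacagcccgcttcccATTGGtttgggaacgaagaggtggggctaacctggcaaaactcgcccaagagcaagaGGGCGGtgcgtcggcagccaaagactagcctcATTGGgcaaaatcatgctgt
Acat2: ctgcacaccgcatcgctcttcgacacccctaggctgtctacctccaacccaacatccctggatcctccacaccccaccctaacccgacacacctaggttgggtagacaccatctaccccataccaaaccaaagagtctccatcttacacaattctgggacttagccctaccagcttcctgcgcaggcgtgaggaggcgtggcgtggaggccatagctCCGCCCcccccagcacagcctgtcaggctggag
In Hmgcs1 the sterol response core began 137 bases before the start, between CCAAT boxes at 176 and 45 bases. The CCAAT box of Cyp51 lay 29 bases before the start and those of Nsdhl at 109 and 20 bases. Acat2 held a GC box 33 bases before the start.

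Acat2 was lower in OPA1_LKO. The gene, at chr17:12943042-12960725, encodes the cytosolic acetyl-CoA acetyltransferase at the entry of the mevalonate route, and is not the sterol acyltransferase Soat2 that shares this alias. It was at 23.9, 38.7, 37.5, 35.9 and 42.2 CPM in the CTRL libraries and 19.0, 20.3 and 17.7 CPM in the OPA1_LKO libraries. Every OPA1_LKO library was below every control, with CTRL replicate 1 the nearest to them. Its difference was -0.91 ± 0.18 (SE) on the log2 scale, at an edgeR adjusted p of 0.0195 (Benjamini-Hochberg). In TPM the means were 18.7 ± 3.35 (SD, n = 5) and 11.4 ± 1.70 (SD, n = 3).

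The sign of Acat2 held in all 13 alternatives, and the call held in 6 of the 8 that left out a library. Leaving out OPA1_LKO replicate 1 ended the call (adjusted p = 0.0997, edgeR), as did leaving out OPA1_LKO replicate 3 (0.101) and limma on log2(TPM + 1) (-0.67, 0.0658). Of the 16 enzymes downstream of Acat2, 11 had positive estimates. Stard4, a cytosolic sterol carrier and known SREBP2 target, was at 15.4 to 33.7 CPM in CTRL and 16.7 to 24.8 CPM in OPA1_LKO, with a log2 fold change of -0.36 ± 0.23.

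The LXR receptors and the sterol exporters gave 0 calls among 6 members. Nr1h3, LXR alpha, was at 93.5, 110.4, 89.0, 101.3 and 98.9 CPM in the CTRL libraries and 86.4, 85.6 and 81.0 CPM in the OPA1_LKO libraries. The groups did not overlap but lay close, at a log2 fold change of -0.23 ± 0.12 and an adjusted p of 0.294 (edgeR, Benjamini-Hochberg). Nr1h2, LXR beta, had 0.30 ± 0.16, of the opposite sign. Per length, Nr1h3 exceeded Nr1h2 in CTRL, at 62.1 ± 11.8 against 19.5 ± 4.32 TPM (SD, n = 5).

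All 4 exporter genes had negative estimates, with a median of -0.50 and 0 calls, though that of Abcg1 turned positive without CTRL replicate 1. Abca1, which loads cholesterol onto apolipoprotein A-I, was at 29.2, 40.0, 33.5, 67.4 and 51.5 CPM in the CTRL libraries and 23.7, 29.0 and 38.9 CPM in the OPA1_LKO libraries. Its log2 fold change was -0.54 ± 0.28 with an adjusted p of 0.272 (edgeR, Benjamini-Hochberg). Abcg5 and Abcg8 encode the partner subunits of the pump that moves sterol into bile and are neighbours at chr17:84658174-84683011 and chr17:84676302-84700333. Abcg5 was at 71.8, 123.1, 129.1, 118.8 and 93.3 CPM in the CTRL libraries and 55.3, 100.2 and 72.2 CPM in the OPA1_LKO libraries. Abcg8 was at 48.9, 93.6, 71.4, 91.8 and 79.0 CPM in the CTRL libraries and 39.0, 74.7 and 49.2 CPM in the OPA1_LKO libraries. Both were low in CTRL replicate 1 and in OPA1_LKO replicates 1 and 3, and both had a log2 fold change of -0.50, with adjusted p-values of 0.242 and 0.267.

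Abcg1, which passes cholesterol to high density lipoprotein and is abundant in macrophages, was at 24.7 CPM in CTRL replicate 1 and at 7.98, 4.75, 4.60 and 7.16 CPM in the other controls. In OPA1_LKO it was at 7.57, 8.64 and 6.39 CPM. The log2 fold change of -0.39 ± 0.52 (adjusted p = 0.689, edgeR) became 0.30 (adjusted p = 0.423) without CTRL replicate 1, the library in which the 13 macrophage markers summed to 1100 CPM. The part of macrophages in the Abcg1 level was not tested.

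**Figure D4:**
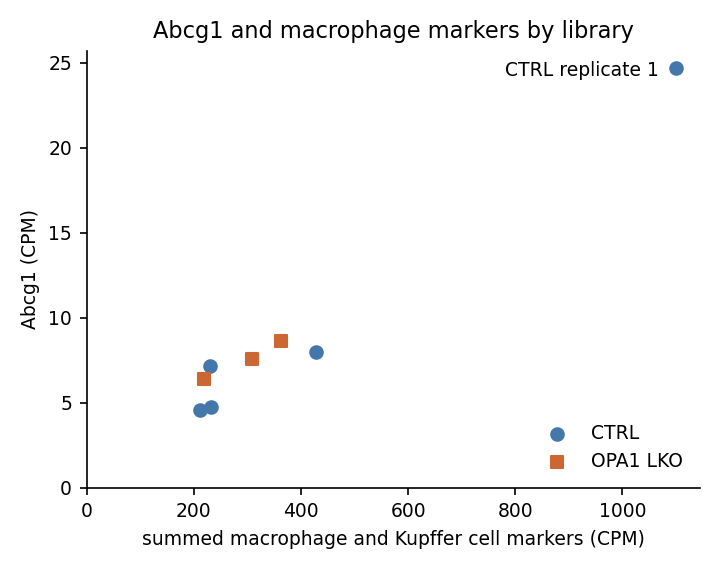
Abcg1 level against the summed level of 13 macrophage and Kupffer cell markers, both in CPM, with 1 point per library. CTRL replicate 1 lies apart at 1100 and 24.7 CPM, while the other 7 libraries lie between 211 and 427.5 CPM for the markers and between 4.60 and 8.64 CPM for Abcg1.

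Npc1 was higher in OPA1_LKO. It was at 72.7, 66.6, 80.6, 82.8 and 80.0 CPM in the CTRL libraries and 126.8, 105 and 109.9 CPM in the OPA1_LKO libraries. Each group was tight and the lowest OPA1_LKO library stood clear of the highest control. On the log2 scale the difference was 0.57 ± 0.13 (SE), at an edgeR adjusted p of 0.0309 (Benjamini-Hochberg), and the means in TPM were 15.4 ± 1.74 (SD, n = 5) and 25.8 ± 3.77 (SD, n = 3).

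The estimate of Npc1 was between 0.49 and 0.70 in all 13 alternatives, and the call held in 4 of the 8 that left out a library. Without CTRL replicate 2 the adjusted p from edgeR was 0.0720, and it was 0.0638 when CTRL replicate 5 was left out. Removing OPA1_LKO replicate 1 gave 0.168, and removing OPA1_LKO replicate 3 gave 0.0779. Exons of Npc1 share 511 bases, 4.52% of its exonic length in GENCODE M21, with Rmc1 on the opposite strand. Npc1 was not alone in this: 12 of the 31 members share exonic bases with another gene, 10 of them on the opposite strand. The share was 26.7% for Fdps (Gm43738, same strand) and 18.3% for Fdft1 (Ctsb, opposite strand). The libraries kept strand per the labels' protocols, but the strand setting of the counting is not given in the sources used here. Rmc1 was at 20.2 ± 2.59 CPM (SD, n = 5) in CTRL and 19.6 ± 1.85 CPM (SD, n = 3) in OPA1_LKO (log2 fold change -0.04 ± 0.14).

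Soat2, the hepatocyte enzyme that esterifies cholesterol for lipoproteins, lies at chr15:102150415-102163469 and had no exonic overlap. It was at 39.9, 30.6, 44.7, 33.1 and 28.5 CPM in the CTRL libraries and 76.4, 38.9 and 78.1 CPM in the OPA1_LKO libraries. OPA1_LKO replicates 1 and 3 were above all controls, and OPA1_LKO replicate 2 was inside their range, as for Sqle and Lss. The log2 fold change was 0.87 ± 0.24 with an adjusted p of 0.0591 (edgeR, Benjamini-Hochberg), just outside the threshold. It passed in 4 of 13 alternatives, namely DESeq2 (adjusted p = 0.0126) and edgeR after removal of CTRL replicate 1 (0.0414), of CTRL replicate 3 (0.0488) or of OPA1_LKO replicate 2 (0.0155, with a log2 fold change of 1.13).

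**Figure D5:**
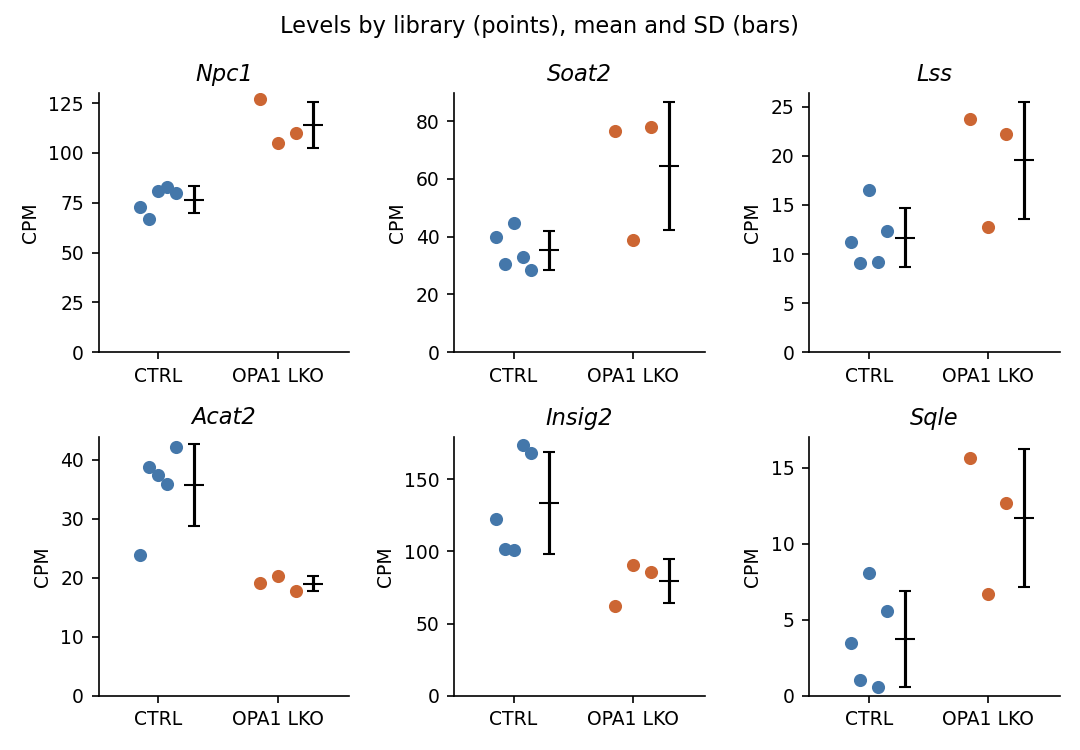
CPM of 6 genes in each library (points) with the mean and SD of each group (bars). Npc1 and Acat2 were called, with no overlap between groups. Insig2 had no overlap but was not called, and OPA1 LKO replicate 2 was the lowest OPA1 LKO library of Soat2, Lss and Sqle.

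The transcript table held 91 transcripts of the 31 genes, and 10 of the genes had a single one. Of the 61 that passed the filter on low counts, 0 were called by edgeR, beside 0.0569% of the 26349 transcripts tested. The transcript with nearly all of the Npc1 abundance was at a mean of 15.4 TPM in CTRL and 25.8 TPM with the knockout, and did not pass the test, at a log2 fold change of 0.60 ± 0.11 and an adjusted p of 0.131 (edgeR, Benjamini-Hochberg). The single Acat2 transcript was at -0.88 ± 0.19, with an adjusted p of 0.159.

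Beyond the 31 genes, 66 other genes of the pathway were examined, in lists of further synthesis enzymes, SREBP processing, sterol uptake, sterol transfer, oxysterol enzymes and lipogenic SREBP1 and LXR targets. Of the 63 tested, 1 was called higher and 2 lower by edgeR, beside 3.34% and 2.69% of all tested genes, and the median log2 fold change was -0.15. DESeq2 called 1 higher and 6 lower, beside 5.21% and 5.42% of the genes it gave an adjusted p. The 11 tested genes of further synthesis steps had 0 calls and a median of -0.27, the 12 of SREBP processing 0 and -0.05, the 8 of uptake and lysosomal handling 0 and -0.30, and the 13 of transfer and esterification 0 and -0.02. The calls were among oxysterol enzymes and lipogenic targets. Cyp39a1, an oxysterol hydroxylase of bile acid synthesis, was at 3.40, 3.32, 4.42, 7.203 and 5.61 CPM in the CTRL libraries and 9.51, 14.2 and 10.7 CPM in the OPA1_LKO libraries (log2 fold change 1.26 ± 0.27, edgeR adjusted p = 0.0239). Cyp46a1, a cholesterol hydroxylase known mainly from neurons, was at 14.6, 13.3, 44.1, 23.5 and 27.5 CPM in the CTRL libraries and 5.96, 3.73 and 5.39 CPM in the OPA1_LKO libraries (log2 fold change -2.29 ± 0.40, edgeR adjusted p = 0.0128).

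Scd1, the stearoyl-CoA desaturase and a target of SREBP1 and LXR, was at 5252 ± 1891 CPM (SD, n = 5) in CTRL and 803.6 ± 298.8 CPM (SD, n = 3) in OPA1_LKO (log2 fold change -2.71 ± 0.37, edgeR adjusted p = 0.00384). It was the 1 call among 14 lipogenic targets tested, whose median was -0.25. All 3 called genes had groups that did not overlap, but the calls come from the same values, so this adds no support. Over all tested genes, 8% had every OPA1_LKO library above every CTRL library and 8.41% every one below.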

How the data were processed

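Liver RNA was sequenced in 5 CTRL and 3 OPA1_LKO libraries. Per the submitters' processing notes, STAR, RSEM, StringTie and MultiQC were used with mouse build mm10. Versions, the annotation release and the strand setting were not stated there. The authors deposited expected counts and TPM per gene and per transcript, from RSEM, which divides reads that match several places by estimation. Expected counts were rounded here, filtered with filterByExpr (count minimum 10, total minimum 15), scaled by TMM and tested by edgeR 4.0.16 in R 4.3.3 (quasi-likelihood, genotype as the only term, Benjamini-Hochberg over 14036 genes or 26349 transcripts). CPM uses TMM-scaled totals, TPM was taken as deposited without that scaling, and each SE comes from the fold change and its F statistic. The procedure was tested on simulated data. DESeq2 1.42.0, limma 3.58.1 on log2(TPM + 1), other scaling, no filter, a replicate block and leaving out each library were alternatives.

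The members and lists were chosen with earlier results of these data known. All 31 members, the called genes of the other lists and Opa1 were named by rule, and Apoe and Rmc1 were chosen after their values were seen. Of 67 entries in the other lists, 66 matched a gene, 3 of them through a RefSeq synonym. Gene positions and promoter sequences are from RefSeq (GRCm38.p6, the assembly that mm10 represents). Sequences were not printed for every member.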

Additional observations from a re-analysis of the deposited data

Results flagged for a closer look

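A single control library far from the other 4 was looked for in each of the 31 genes, and 2 were found. With normally distributed values, chance alone flags about 1 gene in 20, so 2 of 31 is near that rate. Abcg1 was at 24.7 CPM in CTRL replicate 1, against 4.60 to 7.98 CPM in the other controls, a gap of 0.832 of the group's range (critical value 0.710). Idi1 was at 5.67 CPM in CTRL replicate 5, against 0.843 to 1.91 CPM in the other controls, a gap of 0.779 of the range.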

How the results depend on the processing

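Genes changed numbered 846, and 1605 with DESeq2, 367 with the replicate block and 198 to 1701 when single libraries were left out, lowest without OPA1_LKO replicate 1 and highest without CTRL replicate 1. Members called were 1 higher and 1 lower, against 2 and 2 with DESeq2 and 1 and 0 with limma on log2(TPM + 1). They ranged from 0 to 3 higher and 0 to 3 lower when single libraries were left out. Other pathway genes changed numbered 3, and 7 with DESeq2 and 1 to 6 without single libraries. With the replicate block the members called were 0 and 0 (Acat2 -0.78, adjusted p = 0.0775; Npc1 0.64, adjusted p = 0.0659, edgeR). Libraries of the same number deviated together with correlations of 0.07, 0.05 and 0.18, so the numbers were not taken to pair them, and OPA1_LKO replicate 2 correlated more with CTRL replicate 5 (0.17) than with its own number.

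The sign turned for 7 members, all without a call. With limma Scap was at 0.10, Insig1 at 0.22 and Dhcr7 at 0.18, and with the replicate block at 0.09, 0.11 and 0.01. Leaving out single libraries gave ranges of -0.14 to 0.03 for Scap, -0.17 to 0.26 for Insig1, -0.15 to 0.33 for Hmgcs1, -2.42 to 0.44 for Idi1, -0.10 to 0.13 for Ebp, -0.18 to 0.30 for Dhcr7 and -0.55 to 0.30 for Abcg1. The cause was not tested. The other 24 members kept their sign in all 13 alternatives. The calls of Srebf1, Pmvk, Insig2, Lss, Soat2, Acat2 and Npc1 depend on single libraries or the tool. Member transcripts called stayed at 0 in every alternative run for transcripts. Calls overall held in 9 of 13 alternatives for Acat2 and 8 of 13 for Npc1. Counts per library were 7 to 99 for Idi1 (SE 0.88), 8 to 339 for Sqle (0.65) and 205 to 1131 for Fdps (0.45), and the part of depth in these errors was not tested.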
